A study of Homo sapiens with 18 samples.

Results

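The 86 chromatin regions described here lie at 9 genes of the insulin-like growth factor (IGF) and insulin system, IGF1R, INSR, IRS1, IRS2, IGF2R, IGFBP2, IGFBP3, IGFBP5 and IGFBP6. They were chosen by position from the 115087 regions of the table of open chromatin, as those that overlap a gene body extended by 20 kb on both sides in GENCODE release 44 on GRCh37. The genes themselves were chosen with earlier values in view, namely the change of 1 IGF1R region after cetuximab in SCC6 and its difference between lines. That region, IGF1R 32, is therefore described without a test. Of the 86 regions, 36 lie at IGF1R, 8 at INSR, 6 at IRS1, 7 at IRS2, 12 at IGF2R, 6 at IGFBP2, 4 at IGFBP3, 9 at IGFBP5 and 3 at IGFBP6, and 5 of them are shared by the neighbouring genes IGFBP2 and IGFBP5. They are numbered along the chromosome within each gene. At the 20 kb limit, the nearest region inside was IGFBP2 6, at 19583 bases from IGFBP2 and with a mean signal of 12.5, and the nearest outside lay 20754 bases from IGF2R, at chr6:160555293-160555702, with a mean signal of 8.95.

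The libraries are ATAC-seq, in which a transposase cuts accessible DNA, from 3 human head and neck squamous cell carcinoma lines, SCC1, SCC6 and SCC25. Cells of each line received cetuximab, an antibody that blocks the epidermal growth factor receptor EGFR, at 100 nM or PBS as the untreated control, for 5 days. There were 3 libraries per group, except SCC1 with PBS, which had 2 (replicates 1 and 3), and so 17 libraries in 6 groups. Every group is 1 established line in culture, and nothing in the labels says whether replicates were separate cultures, so p-values measure the spread between libraries, which may be technical. The libraries held 2194851 to 4171650 reads in regions in SCC1, 4098164 to 15017130 in SCC6 and 2513828 to 13408698 in SCC25. The signal is the read count of a region scaled by the authors to a common level across libraries, and its median over all regions, averaged over libraries, was 22.4. A bulk signal cannot tell more cells with an open region from a region that is more open in each cell. Of the epithelial markers, the promoters of CDH1 and EPCAM carried a peak in 14 and 16 of the 17 libraries and those of TP63, KRT5, KRT14 and DSG3 in 7, 8, 6 and 5. TP63 had a peak in 0 libraries of SCC1, and KRT14 and DSG3 in 0 of SCC6. The promoters of PTPRC, CD3E, CDH5, MYOD1 and NEUROD1, markers of other cell types, had none, and PECAM1 had no start site to be read. Of the fibroblast markers, COL1A1 had a promoter peak in 14 libraries and PDGFRB in 1.

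IGF1R is a receptor tyrosine kinase at the cell surface that binds IGF1 and IGF2, and INSR, the insulin receptor, is its closest relative. Both phosphorylate the docking proteins IRS1 and IRS2, which carry the signal to PI3-kinase and AKT, while IGF2R binds IGF2 and takes it to the lysosome without signalling through a kinase. The IGF binding proteins hold IGFs in the extracellular space and set how much ligand reaches the receptor. EGFR and IGF1R feed into shared downstream kinases, and IGF1R has been studied as a route around EGFR blockade in squamous carcinoma. Accessibility measures where regulatory DNA is open and is not a measure of transcript or protein.

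The sequences of 5 regions on which the results turn are given from the GRCh37 reference, plus strand, as windows of 300 bases. They are the promoter window that ends just before the canonical IGF1R start site, which fell in SCC6 (chr15:99191468-99191767), the intronic IGF1R region with the smallest adjusted p in SCC6 (chr15:99319973-99320272), the intronic IGF1R region that moved in opposite directions in SCC1 and SCC6 (chr15:99446749-99447048), the region upstream of IGFBP3 that rose in SCC6 (chr7:45964059-45964358), and the intronic IRS1 region that fell in SCC6 (chr2:227656375-227656674). Capitals mark matches on either strand to the letters of an AP-1 site (TGANTCA), a TFAP2 site (GCCNNNGGC), a FOX site (TGTTTAC) or a GC box (GGGCGG).
IGF1R 2: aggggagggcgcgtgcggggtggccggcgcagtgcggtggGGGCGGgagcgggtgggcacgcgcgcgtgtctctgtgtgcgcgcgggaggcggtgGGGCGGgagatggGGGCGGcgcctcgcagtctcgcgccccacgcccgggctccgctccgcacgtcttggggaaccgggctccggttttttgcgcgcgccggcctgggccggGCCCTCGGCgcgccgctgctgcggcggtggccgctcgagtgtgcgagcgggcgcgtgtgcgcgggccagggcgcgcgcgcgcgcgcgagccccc
IGF1R 16: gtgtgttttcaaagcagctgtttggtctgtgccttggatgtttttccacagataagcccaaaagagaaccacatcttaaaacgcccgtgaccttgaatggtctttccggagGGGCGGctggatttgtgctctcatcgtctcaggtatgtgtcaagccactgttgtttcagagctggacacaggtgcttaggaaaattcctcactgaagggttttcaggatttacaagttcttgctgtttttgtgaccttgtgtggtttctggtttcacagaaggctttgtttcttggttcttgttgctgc
IGF1R 34: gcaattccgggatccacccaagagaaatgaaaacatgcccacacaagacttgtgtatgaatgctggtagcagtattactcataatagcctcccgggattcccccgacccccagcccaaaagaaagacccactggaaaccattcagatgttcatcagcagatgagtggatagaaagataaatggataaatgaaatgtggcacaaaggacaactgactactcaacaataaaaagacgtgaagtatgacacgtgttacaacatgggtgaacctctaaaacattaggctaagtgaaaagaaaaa
IGFBP3 3: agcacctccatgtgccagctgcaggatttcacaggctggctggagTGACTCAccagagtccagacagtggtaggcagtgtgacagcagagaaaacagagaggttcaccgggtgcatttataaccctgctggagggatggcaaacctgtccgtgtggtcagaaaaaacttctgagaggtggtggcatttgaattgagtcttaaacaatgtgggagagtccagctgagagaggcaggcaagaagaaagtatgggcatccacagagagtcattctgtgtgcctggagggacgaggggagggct
IRS1 5: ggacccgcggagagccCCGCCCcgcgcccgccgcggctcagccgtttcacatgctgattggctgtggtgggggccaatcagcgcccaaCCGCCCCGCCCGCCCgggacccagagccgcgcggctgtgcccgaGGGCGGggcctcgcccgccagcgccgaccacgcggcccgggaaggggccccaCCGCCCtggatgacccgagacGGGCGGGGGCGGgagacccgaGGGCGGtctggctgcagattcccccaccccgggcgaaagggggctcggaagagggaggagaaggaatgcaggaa
The IGF1R promoter window held 1 TFAP2 match and 3 GC box matches at a GC content of 81.7%, and the IRS1 window 9 GC box matches, some of which overlap, at 76.3%. The windows of IGF1R 16 and IGFBP3 3 held 1 match each, to a GC box and to AP-1, and that of IGF1R 34 held none of the 4. Over the 300-base windows at the centres of all 115087 regions, 31.5% held an AP-1 match, 11.8% a TFAP2 match, 7.5% a FOX match and 15.3% a GC box, and over the 86 regions the shares were 33.7% (29 regions), 16.3% (14), 5.8% (5) and 22.1% (19). These are matches of letters and not measured binding.

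In SCC6 cetuximab was followed by changes in both directions at IGF1R and its partners. Of 74 regions tested, 12 were higher and 9 lower after cetuximab (limma, Benjamini-Hochberg adjusted p under 0.05 over all regions), and without IGF1R 32 the higher count was 11. In the same comparison 16.9% of all tested regions were called higher and 10.6% lower. The share of regions called at these genes, 28.4% with IGF1R 32 included, was near that of the genome. The median log2 change of the 74 regions was 0.04 and that of all regions 0.11. Groups that do not overlap were common. They were found at 30 of these 74 regions, IGF1R 32 included, and at 17 of 77 in SCC25, where none was called. Their share over all regions was not counted, so separation below is given as a description. Log2 changes are of the signal plus 1, positive where cetuximab was higher, and are given ± SE. The 12 other regions were too low in SCC6 to be tested, since the 25% of regions with the lowest mean in the libraries of a fit were left out.

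At IGF1R (chr15:99191768-99507759, plus strand), 7 of 32 regions tested were higher in SCC6 (6 without IGF1R 32) and 3 lower. The 2 regions at the canonical promoter both fell. The promoter region IGF1R 2 (chr15:99191436-99191872), which spans the start site and part of the first exon, had signals of 47.5, 51.1 and 51.2 after cetuximab and 96.7, 72.3 and 74.0 after PBS. All 3 treated libraries lay below all 3 controls, with a log2 change of -0.67 ± 0.21 (adjusted p 0.0122), a call that was lost without PBS replicate 1 (adjusted p 0.0921). IGF1R 1 (chr15:99190558-99191039), just upstream and within the long non-coding gene IRAIN, had 47.5, 45.5 and 56.9 against 83.4, 80.3 and 94.6. Again the groups did not overlap, and the log2 change was -0.78 ± 0.20 (adjusted p 0.00314). Since accessibility in SCC6 moved with GC content, this was measured beside it. Among all regions of at least 70% GC, the median log2 change in SCC6 was -0.16, with 73.4% of regions below 0, and among the 12 such regions at the 9 genes it was -0.12, with 83.3% below 0. With the trend on GC removed, IGF1R 2 had a log2 change of -0.51 (adjusted p 0.0419) and IGF1R 1 of -0.59 (adjusted p 0.0136).

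The largest rises at IGF1R in SCC6 lay deep in intron 2, at 126.83 and 128.35 kb from the canonical start. IGF1R 16 (chr15:99319894-99320351) had 76.8, 109 and 101 after cetuximab and 14.5, 36.8 and 32.6 after PBS. Every treated library was more than 2 times as high as every control, and the log2 change was 1.82 ± 0.26 (adjusted p 4.93e-07). The authors' peak lists placed a peak there in all 3 treated SCC6 libraries and in none of the other 14. Its signal was 1.30 to 3.89 in SCC1 and 1.77 to 15.6 in SCC25, so the region was low in both other lines under either treatment. IGF1R 15 (chr15:99318341-99318846), the neighbouring region, had 37.4, 34.4 and 38.4 against 12.1, 8.70 and 10.9. The groups were well apart, with a log2 change of 1.72 ± 0.33 (adjusted p 7.38e-05), yet the treated SCC6 libraries remained below the PBS libraries of SCC1 (53.3 and 81.5) and SCC25 (142, 112 and 136).

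Further along the gene, regions near alternative start sites in intron 2 and at exon 4 were also called higher in SCC6, though not all of them. Starts of all annotated transcripts of a gene were used, coding or not, and whether they act as promoters was not tested. IGF1R 30 (chr15:99416813-99417434), which lies on such a start and was chosen after its values were seen, had 129, 147 and 119 after cetuximab and 134, 138 and 159.9 after PBS, with overlapping groups, and did not pass (-0.13 ± 0.14, adjusted p 0.507). IGF1R 29 (chr15:99416044-99416376), within 1 kb of an alternative start, had 79.8, 78.9 and 76.0 against 33.8, 31.4 and 38.1. The groups did not overlap and the log2 change was 1.16 ± 0.22 (adjusted p 7.22e-05). IGF1R 33 (chr15:99440088-99440697), which covers coding exon 4 and an annotated start and was the promoter region of the gene with the highest mean signal (148), had 208, 188 and 188 against 132, 139.8 and 138. All treated libraries were higher by a narrow margin, with a log2 change of 0.51 ± 0.13 (adjusted p 0.00192), and the call was lost when libraries were centred on their medians (0.0547) or the GC trend was removed (0.0559, with a log2 change of 0.31). IGF1R 34 in intron 5 (chr15:99446652-99447144) had 28.3, 29.7 and 36.0 against 23.0, 14.7 and 9.79, a log2 change of 1.01 ± 0.33 (adjusted p 0.0185). This call was lost without cetuximab replicate 3 (0.0767), PBS replicate 2 (0.0506) or PBS replicate 3 (0.114), by DESeq2 (0.0785) and with the GC trend removed (0.0644).

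IGF1R 32 (chr15:99433224-99433772), the region known when the gene was chosen, had 181, 145 and 167 after cetuximab and 96.7, 79.6 and 90.3 after PBS in SCC6, a log2 difference of 0.88 ± 0.15. In SCC1 its signals were 47.0, 50.6 and 56.3 against 75.5 and 84.9, and in SCC25 136, 87.9 and 103 against 115, 95.9 and 113. The remaining calls at IGF1R in SCC6 were IGF1R 7 in intron 1 (log2 change 0.62 ± 0.23, adjusted p 0.0382), whose groups overlapped, and IGF1R 20 in intron 2 (-0.75 ± 0.22, adjusted p 0.00795). The call of IGF1R 7 was lost in 10 of 15 alternatives. With the GC trend removed its log2 change was 0.33 (adjusted p 0.266), and the call was also lost with median centring (0.122), quantile normalization (0.0824) or no filter (0.0559), by edgeR (0.0598) and DESeq2 (0.149), and without either of cetuximab replicates 1 and 2 or PBS replicates 2 and 3, while that of IGF1R 20 was lost without cetuximab replicate 1 (0.0546).

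**Figure D1:**
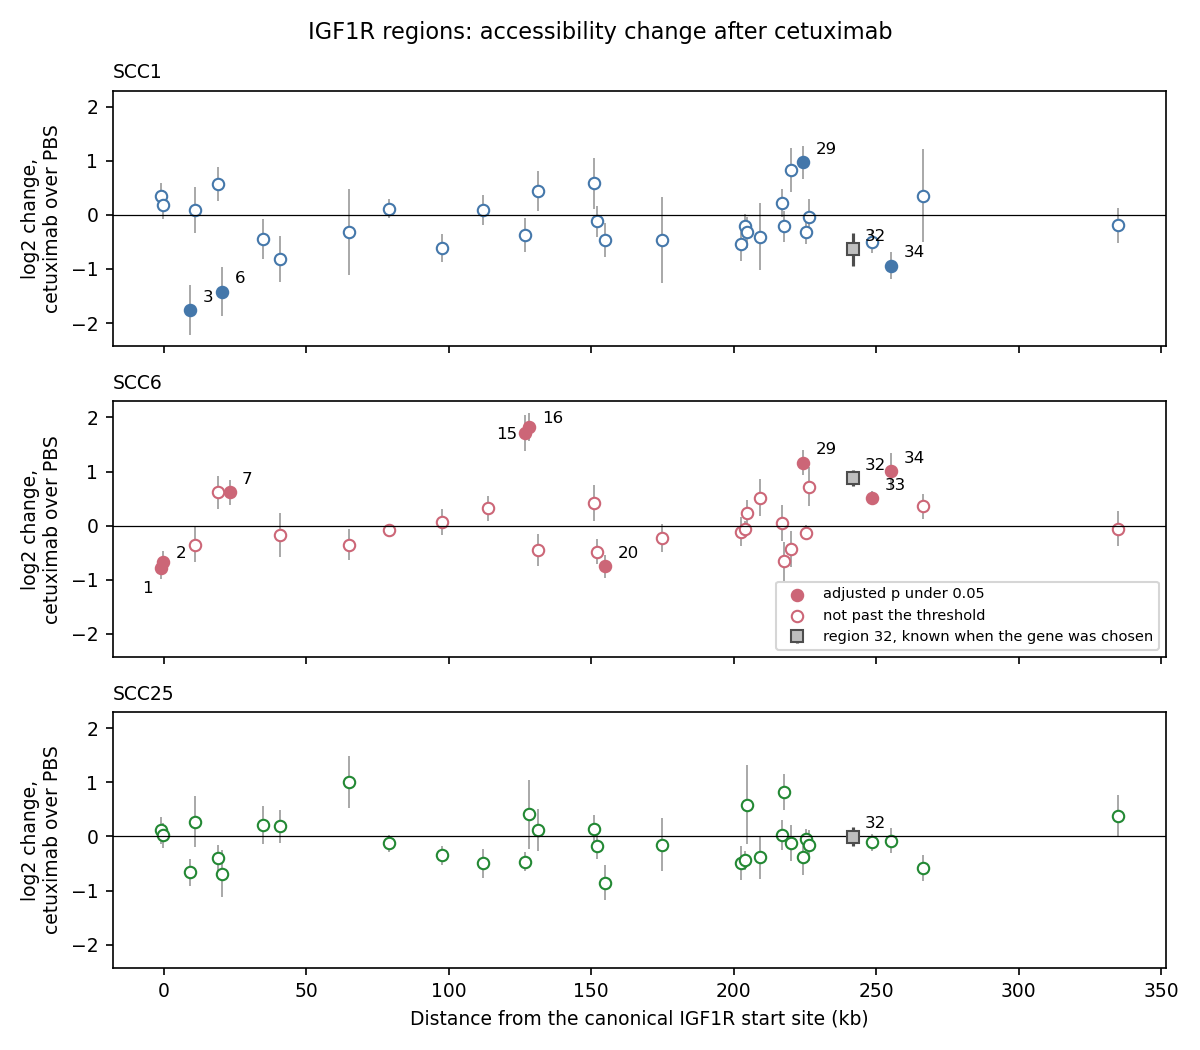
Log2 change in signal after cetuximab (vertical axis, cetuximab over PBS) for each tested IGF1R region against its distance from the canonical start site in kb, in SCC1, SCC6 and SCC25. Bars are SE, filled points passed an adjusted p of 0.05, numbers give the region, and the grey square is IGF1R 32, shown as a description. In SCC6 regions 1 and 2 at the start lie below 0 and regions 15 and 16 at 126.83 and 128.35 kb lie highest, and in SCC25 no point is filled.

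In SCC1, 4 of 79 regions tested were higher after cetuximab and 7 lower, beside 4.58% and 6.56% of all regions, and the median log2 change was -0.12 against -0.09 over all regions. All 11 calls were lost without PBS replicate 1, which leaves a single control library assumed to vary like the treated ones, so none of the SCC1 changes below rests on more than these 2 controls. The counts were 0 higher and 0 lower without it and 2 and 1 without PBS replicate 3. They were 1 and 5 when cetuximab replicate 1 was left out, and 1 and 4 when cetuximab replicate 3 was. Libraries centred on their medians gave 8 higher and 3 lower, since that scaling moved the median of all regions from -0.09 to 0.10, and removal of the GC trend gave 6 and 4. In SCC6 the same centring gave 10 higher and 14 lower and moved the median of all regions from 0.11 to -0.06. Accessibility in SCC1 also moved with GC content, in the other direction than in SCC6. The median log2 change in SCC1 was 0.29 among all regions of at least 70% GC and -0.19 among those below 45%.

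At IGF1R, 1 of 33 regions was higher and 3 were lower in SCC1. IGF1R 29, which rose in SCC6, also rose here, with 82.5, 72.0 and 84.5 after cetuximab and 37.7 and 42.4 after PBS. The 2 groups did not overlap, with a log2 change of 0.97 ± 0.31 (adjusted p 0.0202). IGF1R 34 moved the other way than in SCC6, from 157 and 157 after PBS to 97.7, 60.3 and 92.3 after cetuximab, a log2 change of -0.94 ± 0.25 (adjusted p 0.00416). IGF1R 3 (chr15:99201053-99201294) in intron 1 had 22.9, 23.4 and 6.26 against 49.4 and 58.1, a log2 change of -1.76 ± 0.46 (adjusted p 0.00361). IGF1R 6 (chr15:99212299-99212472), in the same intron, had 17.8, 11.7 and 20.3 against 42.9 and 46.9, a log2 change of -1.42 ± 0.46 (adjusted p 0.0264). In both intron 1 regions every treated library lay below both controls. The call of IGF1R 6 was lost in 8 of 14 alternatives, among them DESeq2 (0.0938), removal of the GC trend (0.0899), the replicate block (0.0798), median centring (0.0599) and quantile normalization (0.0527), and that of IGF1R 3 by DESeq2 (0.0504). The canonical promoter IGF1R 2 had 103, 62.3 and 124 against 67.7 and 97.2 with overlapping groups and did not pass (0.19 ± 0.27, adjusted p 0.725). Neither did IGF1R 33 (-0.50 ± 0.21, adjusted p 0.112), whose 3 treated libraries (162, 156 and 117) lay below both controls (222 and 185). In SCC1 the groups did not overlap at 38 of the 79 regions tested, so such separation does not set a region apart.

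In SCC25 none of the 77 regions tested passed in either direction, beside 0.0405% of all regions called higher and 0.275% lower. Before adjustment, 11 regions had a p under 0.05 by limma, 13 by edgeR and 9 by DESeq2. Over all 86315 regions tested, 11405, 11871 and 8056 had such a p by the same tools. The count of these 77 regions at an adjusted p under 0.05 was 0 by each tool. The median log2 change was -0.05 against -0.08 over all regions. The smallest p was that of IGFBP2 4, with 11.2, 16.9 and 1.77 after cetuximab and 27.5, 26.0 and 28.8 after PBS, a log2 change of -1.75 ± 0.52 (adjusted p 0.139). At IGF1R 2 the signals were 39.4, 58.6 and 62.0 against 57.7, 50.5 and 46.7, and at IGF1R 33 90.0, 123 and 115 against 122, 115 and 115. The groups overlapped at both, with log2 changes of 0.03 ± 0.23 and -0.11 ± 0.16. With few regions called in this line over the whole table, the count at these genes says little about them.

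**Figure D2:**
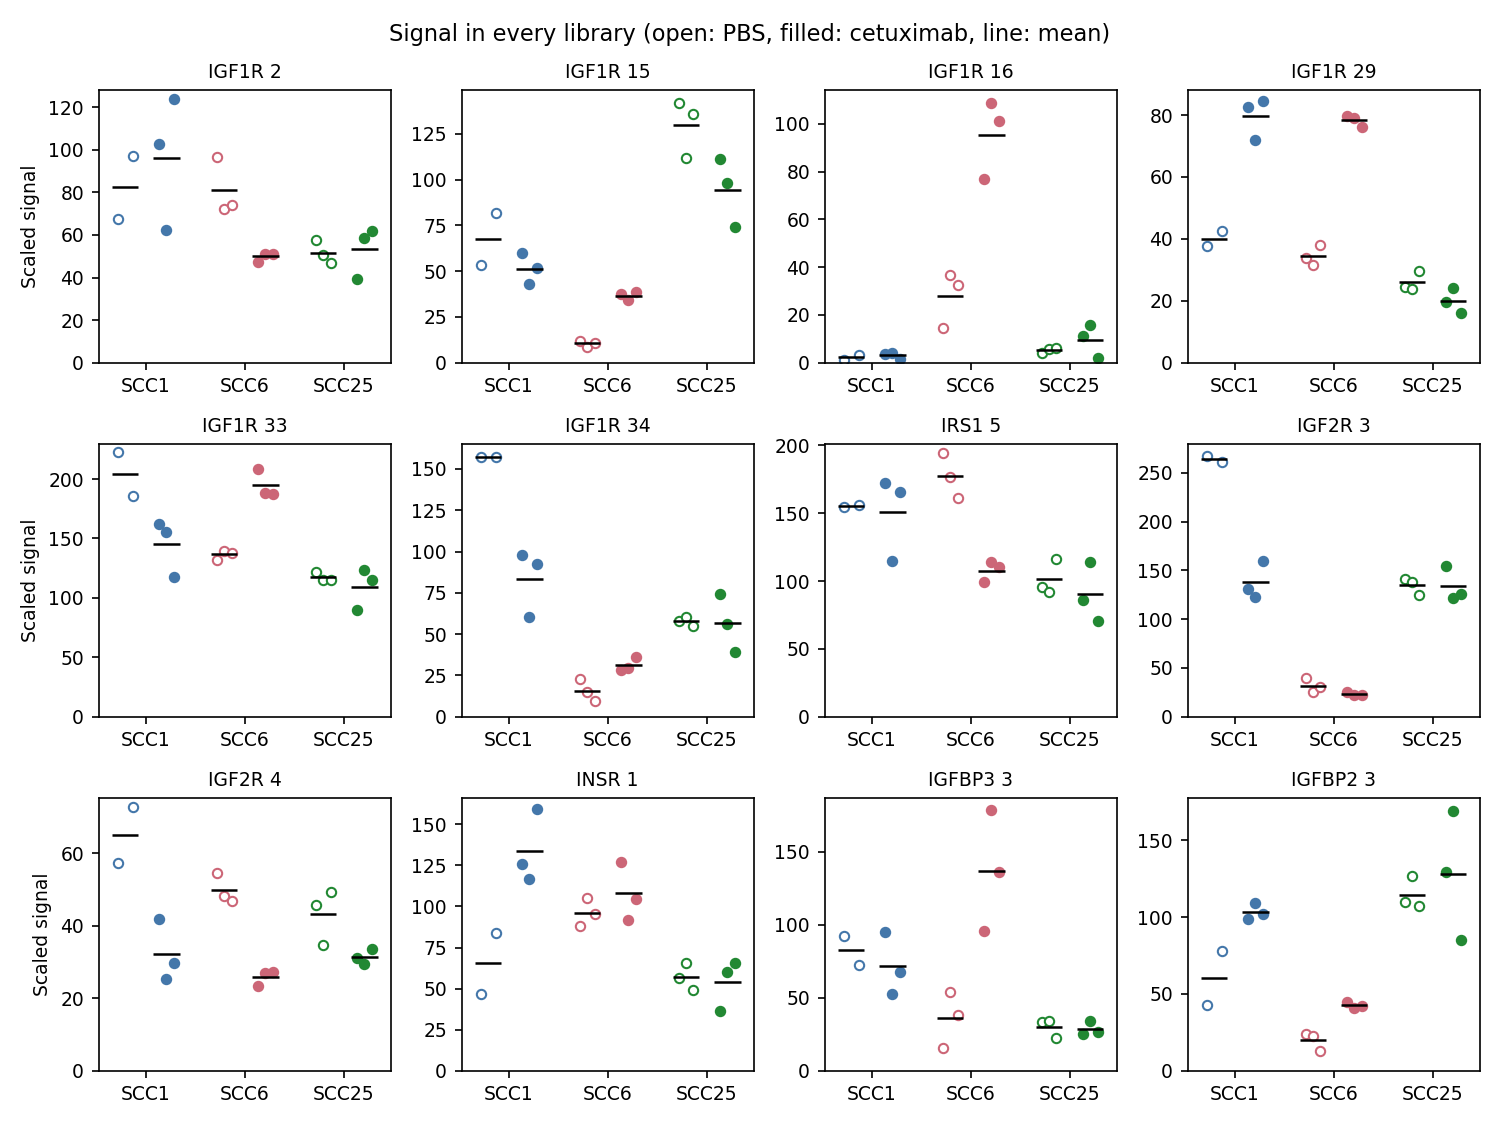
Scaled signal (vertical axis, starting at 0, a different range in each panel) of 12 regions in every library of SCC1, SCC6 and SCC25. Open circles are PBS, filled circles cetuximab and bars the group mean. IGF1R 16 is high only in the 3 treated SCC6 libraries (76.8 to 109), and IGF1R 34 falls in SCC1 and rises in SCC6.

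The insulin receptor gene INSR (chr19:7112266-7294425, minus strand) had no region called in SCC6 (8 tested) and 1 higher in SCC1 (6 tested). That region, INSR 1 (chr19:7098875-7099636), lies 12630 bases past the end of the gene and had 126, 117 and 159.6 after cetuximab and 46.8 and 83.8 after PBS in SCC1. The groups did not overlap, and the log2 change was 1.07 ± 0.25 (adjusted p 0.0012). It was 0.82 (adjusted p 0.0139) with the GC trend removed and 0.66 without PBS replicate 1, where the call was lost. The other regions of chromosome 19 within 5 Mb had a median log2 change of 0.77 in SCC1 (373 regions), near the INSR median of 0.79, so the surroundings rose with it, and their part in the change was not tested. The INSR promoter, INSR 8 (chr19:7294277-7294543), had 35.5, 21.4 and 42.2 against 23.4 and 14.5 in SCC1, 30.3, 27.9 and 26.4 against 18.1, 33.5 and 23.9 in SCC6 and 25.3, 7.16 and 10.6 against 13.2, 10.8 and 10.2 in SCC25. It passed in none of the 3 lines.

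Among the docking proteins, IRS1 had 1 higher and 1 lower region in SCC6 and IRS2 had 2 lower. IRS1 5 (chr2:227656305-227656744), in the first intron of IRS1 at 8.01 kb from its start, had 99.0, 114 and 110.1 after cetuximab and 195, 177 and 161 after PBS. The groups were far apart, with a log2 change of -0.71 ± 0.14 (adjusted p 9.62e-05), or -0.55 (adjusted p 0.00238) with the GC trend removed. IRS1 4, a weaker region of the same intron, rose from 7.25, 13.4 and 16.3 to 31.3, 39.9 and 24.1 (log2 change 1.34 ± 0.35, adjusted p 0.00304). The IRS1 promoter, IRS1 6 (chr2:227664137-227664734), had 71.7, 73.3 and 78.3 against 89.4, 67.6 and 72.9 in SCC6 and did not pass there (-0.03 ± 0.19, adjusted p 0.916), nor in SCC1 (0.41 ± 0.30) or SCC25 (0.09 ± 0.20).

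At IRS2 (chr13:110405042-110438930, minus strand) 2 of 6 tested regions fell in SCC6 and none rose. IRS2 2 (chr13:110395869-110396497), downstream of the gene, had 126, 118 and 88.6 against 153, 173 and 166, a log2 change of -0.58 ± 0.15 (adjusted p 0.00224). IRS2 4 in the intron had 16.2, 10.2 and 17.5 against 33.8, 28.8 and 37.0, a log2 change of -1.16 ± 0.32 (adjusted p 0.00555). In both regions every treated library was below every control. In SCC1 the only call at IRS2 was IRS2 1 (chr13:110390598-110391029), also downstream, with 253, 208 and 246 against 338 and 324 and a log2 change of -0.49 ± 0.18 (adjusted p 0.0467). That call was lost in 11 of 14 alternatives, among them edgeR (0.0876), DESeq2 (0.174) and median centring (0.3). The IRS2 promoter, IRS2 6 (chr13:110438827-110439398), had 164, 141 and 155 against 151, 166 and 173 in SCC6 and passed in no line.

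IGF2R (chr6:160390114-160534539, plus strand), which clears IGF2 from the cell surface, had 4 of 10 tested regions called in SCC1 and 2 of 7 in SCC6. IGF2R 3 (chr6:160399657-160400560) in intron 1 had 131, 123 and 159.6 after cetuximab and 267 and 261 after PBS in SCC1. The treated libraries were far below both controls, with a log2 change of -0.94 ± 0.20 (adjusted p 0.000303, and 0.06 without PBS replicate 1). IGF2R 4 (chr6:160405362-160405590) further into the same intron, fell in both lines. In SCC6 it had 23.2, 26.9 and 27.1 against 54.4, 48.2 and 46.8 (-0.92 ± 0.26, adjusted p 0.00591), and in SCC1 41.9, 25.3 and 29.7 against 57.2 and 72.6 (-1.01 ± 0.36, adjusted p 0.0467). The SCC1 call was at the threshold and was lost in 11 of 14 alternatives. Among them were edgeR (0.0538), DESeq2 (0.173), median centring (0.122), quantile normalization (0.0847) and removal of the GC trend (0.189). IGF2R 11 in intron 39 had 19.0, 29.2 and 36.0 against 78.1 and 43.5 in SCC1 (-1.07 ± 0.38, adjusted p 0.045). Its call was lost in 8 of 14 alternatives, among them DESeq2 (0.16), removal of the GC trend (0.155), median centring (0.111) and quantile normalization (0.0901), and without PBS replicate 1 the log2 change was -0.66 (0.641). Upward calls were IGF2R 9 in SCC1, from 31.2 and 35.7 to 81.2, 54.5 and 68.9 (0.99 ± 0.33, adjusted p 0.0302), and IGF2R 10 in SCC6 (1.57 ± 0.49, adjusted p 0.0141). The call of IGF2R 9 was lost in 5 of 14 alternatives, among them no filter (0.0653). That of IGF2R 10 was lost without cetuximab replicate 2 (0.167). The promoter IGF2R 1 (chr6:160389788-160390210) had 23.2, 38.1 and 38.7 against 39.9, 44.8 and 66.3 in SCC6 and 64.7, 48.7 and 95.5 against 56.0 and 81.5 in SCC1, and passed in no line.

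Of the binding protein genes, IGFBP3 held the largest log2 rise among the tested regions in SCC6. IGFBP3 3 (chr7:45964004-45964413), 2531 bases upstream of the gene for this abundant IGF carrier, had 96.0, 178 and 136 after cetuximab and 15.7, 54.2 and 38.1 after PBS. The groups did not overlap, and the log2 change was 2.02 ± 0.41 (adjusted p 0.00502). Its control libraries spread more than those of most regions named here, which is seen in the SE. In SCC1 it had 95.2, 52.5 and 67.3 against 92.4 and 72.6 and in SCC25 25.3, 33.9 and 26.6 against 33.5, 33.9 and 22.1, with overlapping groups in both. The IGFBP3 promoter, IGFBP3 2 (chr7:45960318-45960839), had 88.9, 49.2 and 76.0 against 67.7, 83.6 and 78.3 in SCC6 and passed in no line.

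Between IGFBP2 and IGFBP5, which lie tail to tail on chromosome 2, IGFBP2 3 (chr2:217529980-217530764) was called higher in both SCC6 and SCC1. In SCC6 it had 44.5, 40.9 and 42.3 against 24.2, 22.8 and 13.1 (1.10 ± 0.29, adjusted p 0.00348), and in SCC1 99.0, 109 and 102 against 42.9 and 78.2 (0.82 ± 0.27, adjusted p 0.0298). The SCC1 change was 0.40 (adjusted p 0.663) without PBS replicate 1, and DESeq2 did not call it (0.0717). The groups did not overlap in either line, and the SCC25 libraries were already high with PBS (109.7, 127 and 107). IGFBP2 1, in the first intron of IGFBP2 3.87 kb from its start, fell in SCC6 (-1.85 ± 0.59, adjusted p 0.0155), a call lost without cetuximab replicate 1 (0.0869) or PBS replicate 2 (0.0579). IGFBP5 8, 18108 bases upstream of IGFBP5, rose in SCC6 (0.87 ± 0.24, adjusted p 0.0044). No region lay within 1 kb of the canonical start of IGFBP2 or of any start of IGFBP5, and the promoter region of IGFBP2 at an alternative start, IGFBP2 2 (chr2:217524048-217524400), passed in none of the lines.

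At IGFBP6, a carrier that prefers IGF2, IGFBP6 3 in intron 1 fell in SCC6 (-0.62 ± 0.23, adjusted p 0.0363). That call was lost on leaving out any of 5 of the 6 SCC6 libraries (adjusted p 0.0641 to 0.134), all but cetuximab replicate 3. The promoter IGFBP6 2 (chr12:53491274-53491949) had 41.4, 45.5 and 52.2 against 55.6, 48.8 and 47.9 in SCC6 and passed in no line. IGFBP6 1 is the promoter of the neighbour SPRYD3 and was called in no line. Over all 9 genes, 16 regions lay within 1 kb of an annotated transcript start, coding or not. Of these, 1 of 16 tested was higher in SCC1 (IGF1R 29). In SCC6 3 were higher (2 without IGF1R 32) and 3 lower, and in SCC25 none of 15 was called.

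Of the 69 regions tested in both SCC1 and SCC6, 4 were called in both lines, 57.1% of the 7 called in SCC1 and 21.1% of the 19 called in SCC6. The 69 and the 19 include IGF1R 32, the region known when the gene was chosen. Over all 69957 regions tested in both lines, the shares were 36.5% of the calls in SCC1 and 15% of those in SCC6. IGF1R 29, IGFBP2 3 and IGF2R 4 moved in the same direction, and IGF1R 34 in opposite directions. The SCC1 call of IGF2R 4 was lost in 11 of 14 alternatives. The regions called higher in SCC6 had a median GC content of 44.3% and those called lower 57.2%, against 49.3% for those not called. Of the 12 higher regions, IGF1R 32 included, 6 held an AP-1 match and 2 a TFAP2 match, and of the 9 lower regions 6 and 4. With counts this small, these shares are given as a description.

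To ask whether the effect of cetuximab differed between the lines, an interaction of line and treatment was tested over all 17 libraries. It passed for 11 of 78 regions (14.1%), IGF1R 32 included, and for 10 without that region. Of all regions 13.2% passed, a share near that at these genes. Of the 10, 7 lay at IGF1R, which held 36 of the 78 regions tested, IGF1R 32 included. INSR, IRS2 and IGFBP3 had 1 each, of 5, 7 and 3 tested. The interaction at IGF1R 15 (adjusted p 6.86e-05) came with a rise in SCC6 and log2 changes of -0.37 ± 0.31 in SCC1 and -0.46 ± 0.17 in SCC25, where the treated signals were 111, 98.3 and 74.4 and the controls 142, 112 and 136. The 3 treated SCC25 libraries thus lay below the 3 controls, and the change did not pass in that line. IGFBP3 3 (adjusted p 0.00191) rose in SCC6 alone among the lines in which it was tested. IGF1R 29 (adjusted p 0.00467) rose in SCC1 and SCC6 and had 19.7, 24.1 and 15.9 against 24.5, 23.8 and 29.7 in SCC25 (-0.38 ± 0.33).

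IGF1R 34 (adjusted p 0.00564) fell in SCC1, rose in SCC6 and had 74.5, 56.0 and 39.0 against 58.0, 60.6 and 55.1 in SCC25, with overlapping groups. After treatment its SCC1 and SCC6 libraries were closer to each other than before. At IGF1R 33 (adjusted p 0.00896) the rise in SCC6 stood beside changes below 0 in the 2 other lines, and the call was lost with median centring (0.0948) or GC removal (0.108). For IRS2 1 (adjusted p 0.0035) the SCC6 libraries had 9.09, 9.28 and 16.2 after cetuximab and 1.21, 2.01 and 7.61 after PBS, too low for the SCC6 comparison by itself, while in SCC1 and SCC25 the region was open under both treatments. IGF1R 1 (0.0389), IGF1R 13 (0.0395), INSR 1 (0.041) and IGF1R 27 (0.0433) were close to the threshold, and each was lost in 12 to 14 of the 26 alternatives.

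**Figure D3:**
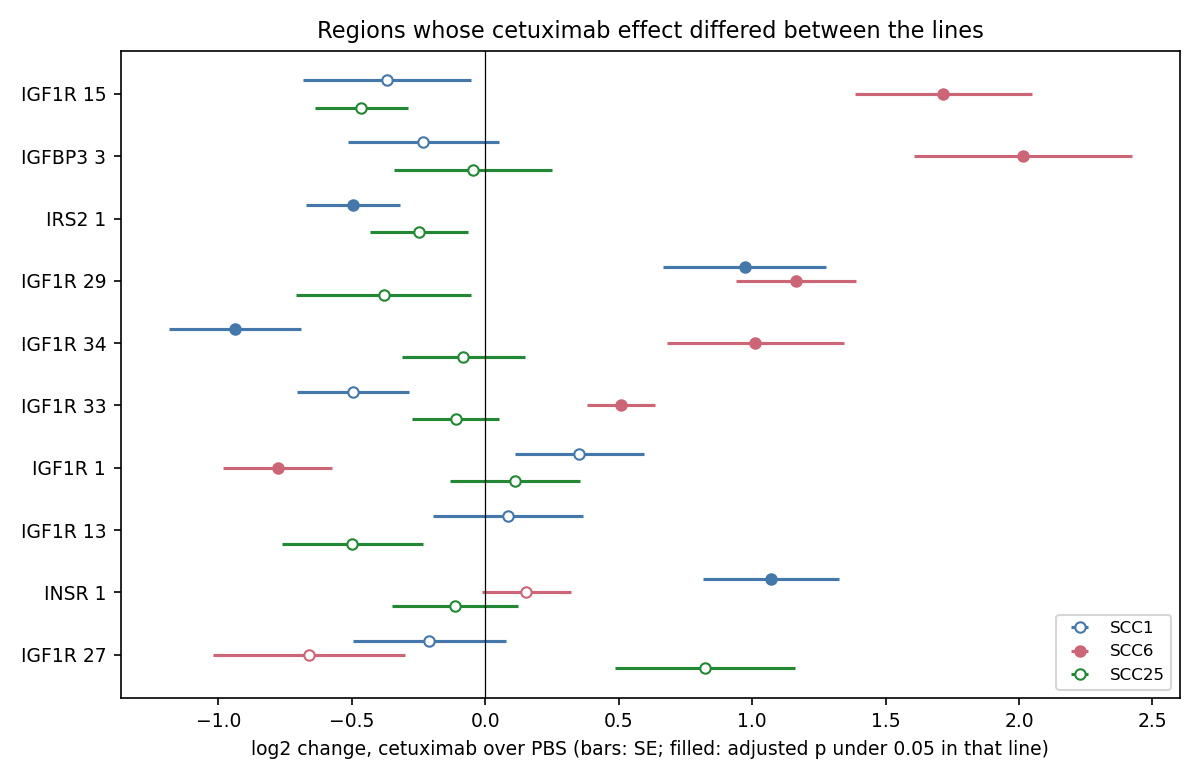
Log2 change after cetuximab with its SE (horizontal axis) in SCC1, SCC6 and SCC25 for the 10 regions whose interaction of line and treatment passed an adjusted p of 0.05, ordered by that p from the top, without IGF1R 32. Filled points passed in that line, and no SCC6 point is drawn for IRS2 1 and IGF1R 13, which were too low there to be tested. The SCC6 point of IGF1R 15 lies at 1.72 and those of the other lines below 0.

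More of these regions were called between the untreated lines than after cetuximab within any line. Among the PBS libraries, 15 of 78 regions were higher and 29 lower in SCC6 than in SCC1 (30.7% and 30.5% of all regions), 12 higher and 29 lower in SCC25 than in SCC1 (28.2% and 23.1%), and 26 higher and 24 lower in SCC25 than in SCC6 (36.7% and 32.1%). All 3 comparisons share libraries, so their counts are not independent. The median over the other regions within 5 Mb is given below for INSR, IGF2R and IGFBP2. In the order SCC6 over SCC1, SCC25 over SCC1 and SCC25 over SCC6, it was -0.407, -0.528 and 0.396 at IGF1R. At IRS1 it was -0.073, -0.342 and -0.196, and at IRS2 -0.389, -0.437 and -0.005. At IGFBP3 it was 0.349, -0.155 and -0.385, and at IGFBP6 0.344, 0.145 and -0.177. Over all regions the medians were -0.060, -0.036 and 0.062. The part of the surroundings in any difference was not tested.

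At IGF1R the untreated lines kept some regions in common and differed at whole elements. IGF1R 11 in intron 2 and IGF1R 33 were overlapped by a peak in every library (in fewer under a stricter peak limit), and IGF1R 33 had PBS signals of 222 and 185 in SCC1, 132, 139.8 and 138 in SCC6 and 122, 115 and 115 in SCC25. The order SCC1, SCC6, SCC25 held in the means, and the differences between neighbours were a log2 of -0.57 ± 0.14 for SCC6 over SCC1 (adjusted p 0.00184) and -0.22 ± 0.12 for SCC25 over SCC6 (adjusted p 0.121). IGF1R 14 (chr15:99305494-99305694) had 42.3, 44.2 and 46.8 in SCC6 and 1 read in each SCC1 library, and was at least 12.2-fold higher in SCC6 when SCC1 is set to 3 reads per library. In SCC25 its signals were 1.88, 0.72 and 0.85 (-4.44 ± 0.27 for SCC25 over SCC6, adjusted p 1.16e-09). IGF1R 13, the next region upstream, had the opposite pattern, with 79.4 and 64.8 in SCC1, 50.1, 43.3 and 46.7 in SCC25 and 1 read in each SCC6 library. It was at least 24.3-fold higher in SCC1 and at least 15.7-fold higher in SCC25 than in SCC6 by the same floor. IGF1R 35 in intron 8 had 1.30 and 5.58 in SCC1 and 55.8, 46.1 and 55.1 in SCC25, a log2 difference of 3.77 ± 0.40 (adjusted p 2e-06).

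At INSR the strongest difference was INSR 7 (chr19:7284407-7284606) in intron 1, with 100.3, 89.7 and 95.7 in SCC6, 1 read in each SCC1 library and 0.75, 2.88 and 0.85 in SCC25. It was at least 26.3-fold higher in SCC6 than in SCC1, again with 3 reads per library as the floor, and differed between SCC25 and SCC6 by a log2 of -5.37 ± 0.37 (adjusted p 3.96e-09). Peaks were called at INSR 7 in 5 of 6 SCC6 libraries and in no other. The other regions within 5 Mb of INSR were also higher in SCC6 than in SCC1, by a median log2 of 1.51, against 0.56 for the INSR regions. None of the 5 INSR regions tested passed between SCC25 and SCC1, where the smallest adjusted p was 0.187, at the promoter.

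IRS2 1 was the docking protein region with the widest range between lines, at 338 and 324 in SCC1, 94.6, 82.2 and 82.3 in SCC25 and 1.21, 2.01 and 7.61 in SCC6. The lines did not overlap, and SCC6 was lower than SCC1 with a log2 difference of -6.43 ± 0.42 (adjusted p 4.44e-09) and SCC25 higher than SCC6 by 4.50 ± 0.38 (adjusted p 3.9e-08). The neighbouring IRS2 2 was open in all 3 lines and lower in SCC25 than in SCC1 (-1.33 ± 0.14, adjusted p 1.63e-06). IRS1 5 had 155 and 156 in SCC1, 195, 177 and 161 in SCC6 and 95.7, 91.6 and 116 in SCC25. It was lower in SCC25 than in either other line, with log2 differences of -0.62 ± 0.15 against SCC1 (adjusted p 0.00251) and -0.81 ± 0.13 against SCC6 (adjusted p 5.89e-05). IRS1 3 was higher in SCC6 than in SCC1 (1.17 ± 0.44, adjusted p 0.0301), a difference lost without SCC1 replicate 1 (0.138) or SCC6 replicate 3 (0.122).

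IGF2R was more open in SCC1 than in SCC6 at 7 of 10 regions and less open at none. IGF2R 3 had PBS signals of 267 and 261 in SCC1, 39.9, 25.4 and 30.4 in SCC6 and 141, 138 and 125 in SCC25. The lines did not overlap, with SCC6 below SCC1 by a log2 difference of -3.03 ± 0.19 (adjusted p 3.37e-09) and SCC25 above SCC6 by 2.07 ± 0.17 (adjusted p 2.98e-08). The other regions within 5 Mb had medians of -0.94 for SCC6 over SCC1 and 0.77 for SCC25 over SCC6, and the IGF2R regions -1.17 and 1.61. IGF2R 11 was lower in SCC25 than in SCC1 (-3.29 ± 0.40, adjusted p 7.33e-06).

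At IGFBP2, 5 of the 6 regions had their highest mean in SCC25. IGFBP2 2 had 110.4, 77.2 and 83.1 in SCC25, 40.3 and 31.3 in SCC1 and 12.1, 8.70 and 6.53 in SCC6, with SCC25 above SCC6 by a log2 difference of 3.19 ± 0.28 (adjusted p 7.94e-08). Here the other regions within 5 Mb had a median of 0.00 for SCC25 over SCC6, against 1.92 for the 6 IGFBP2 regions. IGFBP2 6 was the exception in the segment, at 41.6 and 48.0 in SCC1, 6.41, 12.3 and 3.39 in SCC25 and 1 read in each SCC6 library, at least 15.1-fold higher in SCC1 and at least 2.48-fold higher in SCC25 than in SCC6. IGFBP5 6, 2.26 kb inside the IGFBP5 start, was higher in SCC25 than in SCC1 (2.42 ± 0.30, adjusted p 1.06e-05).

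At IGFBP3, 3 of the 4 regions had their highest mean in SCC1. The promoter IGFBP3 2 had 95.0 and 82.6 in SCC1, 67.7, 83.6 and 78.3 in SCC6 and 44.8, 46.1 and 32.2 in SCC25, with SCC25 below SCC1 by a log2 difference of -1.11 ± 0.22 (adjusted p 0.000551). The upstream region IGFBP3 4 had 54.6 and 60.3 in SCC1, 3.62, 0.67 and 1.09 in SCC6 and 11.3, 10.1 and 11.0 in SCC25, a log2 difference of -4.53 ± 0.45 for SCC6 over SCC1 (adjusted p 3.8e-07) and 2.22 ± 0.40 for SCC25 over SCC6 (adjusted p 0.000151). At IGFBP6 the differences were small, and that of the SPRYD3 promoter IGFBP6 1 was 0.43 ± 0.14 for SCC6 over SCC1 (adjusted p 0.0175, lost without SCC1 replicate 1 or SCC6 replicate 3).

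**Figure D4:**
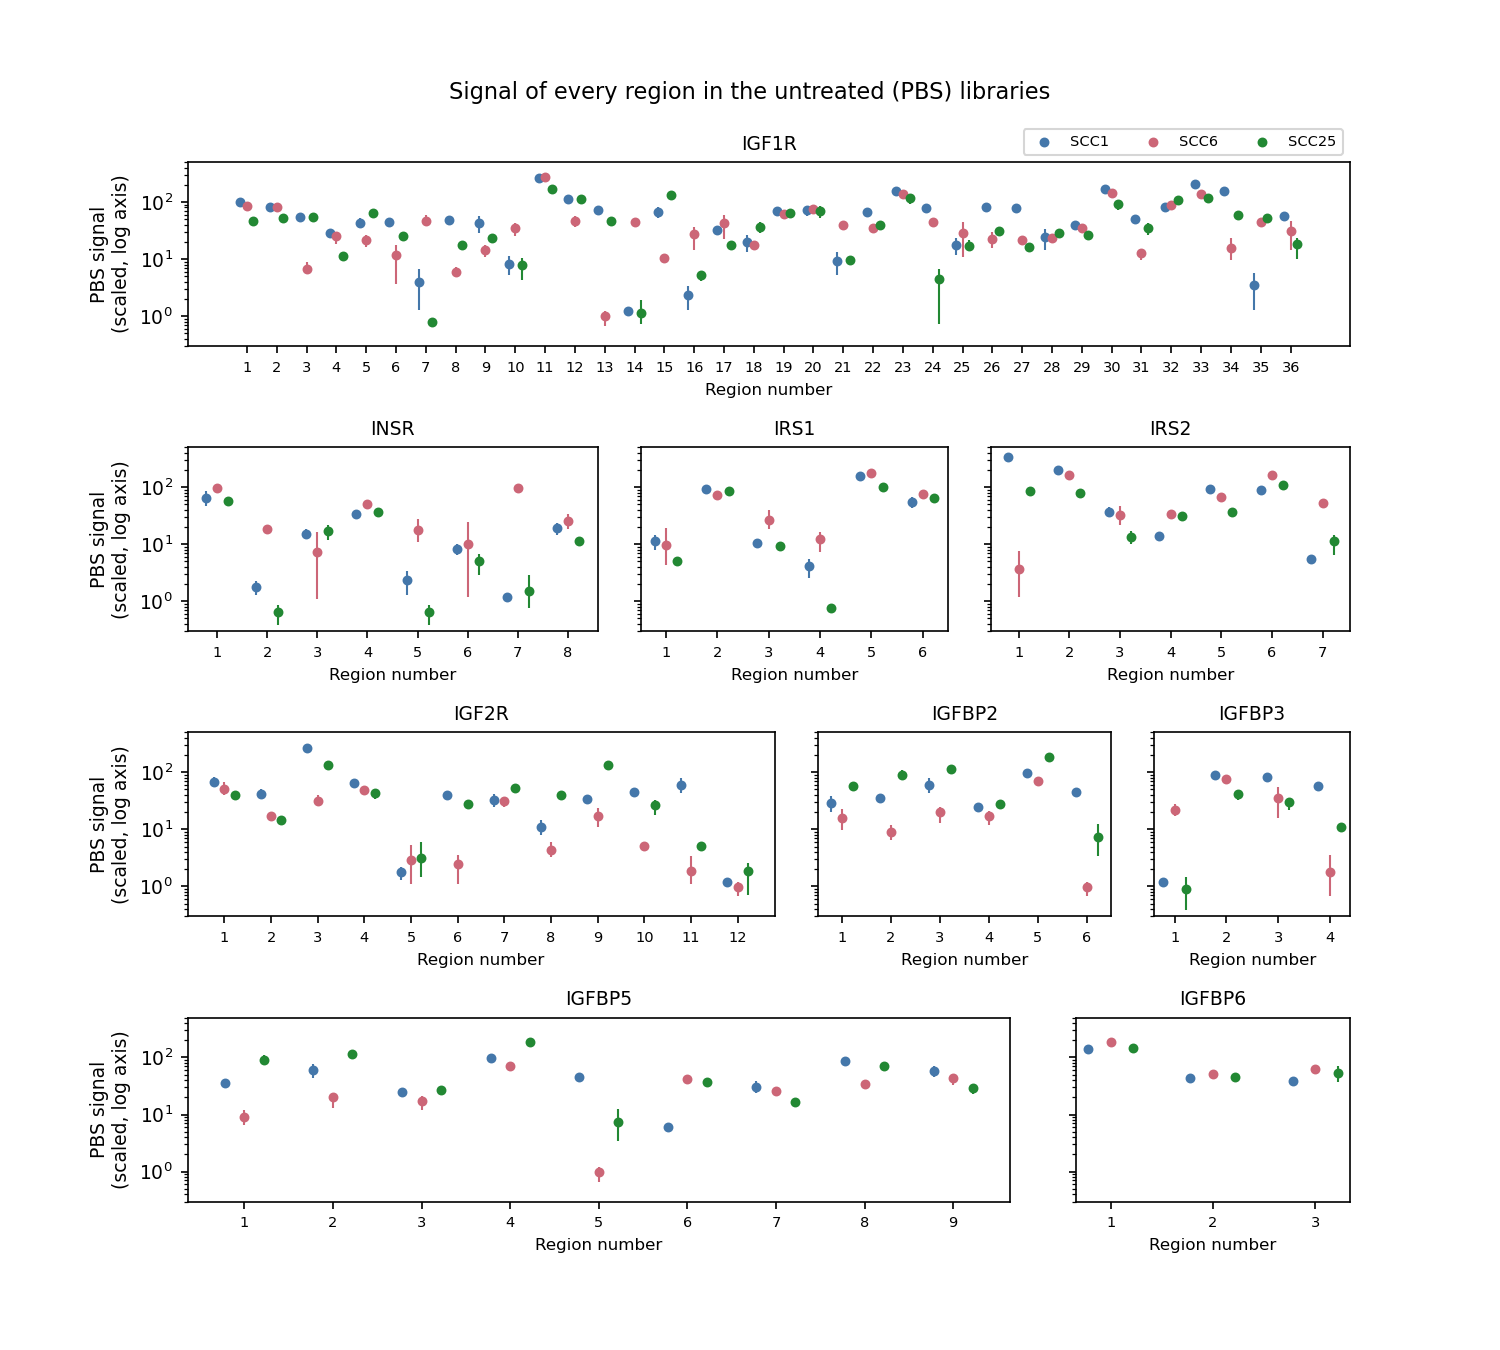
Signal of every region in the PBS libraries (vertical axis, log scale) by region number within each gene, for SCC1 (n = 2), SCC6 (n = 3) and SCC25 (n = 3). Points are means and bars run from the lowest to the highest library, and the regions shared by IGFBP2 and IGFBP5 appear under both. The neighbours IGF1R 13 and 14 show opposite orders of SCC1 and SCC6, and IGF2R 3 is highest in SCC1.

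In the authors' peak lists, made for each library by itself, 7 of the 86 regions had a peak in every library (IGF1R 11 and 33, IRS1 1, 2 and 5, IRS2 2 and IGFBP6 1), where a peak overlapped by at least 1 base. The count was 0 when a peak had to cover 50% of the region, and 0 for peaks with a -log10 q of at least 5. By line, 36 regions had a peak in all 3 lines and 23 in 1 line only, of which 18 were in SCC6, 3 in SCC1 and 2 in SCC25. The lists held 47441 to 101272 peaks in SCC6 and 13035 to 36033 in SCC1, so the number of peaks called moved with these counts, and its part in them was not tested. Regions with a peak were not counted over the whole table of 115087, so the counts here do not set these genes apart from other regions. The promoter regions of protein-coding genes whose signal most resembled that of IGF1R 33 over the 17 libraries were those of TOGARAM2 (Pearson's r 0.929), DOCK4 (0.868) and TPRG1 (0.863), among 18197 promoter regions. The libraries share 3 lines, so the correlation is mostly one of lines, and it is given as a description.

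The same fits were read for 39 other genes of the pathway, of which 38 had at least 1 region, 301 in all. In SCC1, 29 of 257 regions tested were higher and 13 lower, where 4.58% and 6.56% of all regions were. The part of GC content in the SCC1 counts was not tested. In SCC6, 40 of 244 were higher and 30 lower, where 16.9% and 10.6% of all regions were, and in SCC25 0 of 259 were higher and 1 lower. In SCC6 the carriers and their proteases (IGFBP1, IGFBP4, IGFBP7, IGFALS, PAPPA, PAPPA2, STC2 and HTRA1) had 13 higher and 10 lower of 55 regions, the adaptors (such as SHC1, GRB2, GRB10 and GAB1) 9 and 4 of 47, and the effectors from PI3-kinase to FOXO and GLUT4 17 and 16 of 132. The ligands IGF1, IGF2 and INS had 1 higher and 0 lower of 9. The receptor INSRR had 1 region, which did not pass. The interaction passed for 47 of 256 of these regions (18.4%), where 13.2% of all regions passed.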

How the data were processed

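ATAC-seq of 3 established head and neck squamous cell carcinoma lines (17 libraries, 6 groups, 100 nM cetuximab or PBS for 5 days) was read from 1 table of the authors with 115087 regions on GRCh37 (hg19) and 1 peak list per library. Tools named in the submitters' processing notes were Trim Galore 0.5.0, Bowtie2 2.3.2, SAMtools 1.9, Picard 2.18 and MACS2. The deposited signal was a read count per region multiplied by a factor per library, with 0 set to 1 read. All values (100% within 0.001) came out as whole reads when divided by that factor, and each library had 7.14 to 28.8% of regions at 1 read. The fold enrichment, -log10 p and q values and the integer score in the deposited peak lists were made by the authors with MACS2 for each library by itself. Region starts are given as deposited and were read here as counting from 1, the convention in which the widths were also given. If the deposited starts count from 0, the first base of a region is the next one. Windows whose sequence is printed count from 1.

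Signal was analysed as log2(signal + 1) with limma 3.58.1 (R 4.3.3, trend and robust, two-sided) in each line, over all 17 libraries for the interaction of line and treatment (an F-test) and over the 8 PBS libraries for lines. The 25% of regions with the lowest mean in a fit were left out, and p-values were adjusted by Benjamini-Hochberg over all 86298 to 86315 regions tested, with 0.05 as the limit. The table held scaled values and not raw counts, so edgeR 4.0.16 (quasi-likelihood) and DESeq2 1.42.0 on the recovered reads were alternatives. The fits were tested on simulated data. Other alternatives were pseudocounts, no filter, median centring, quantile normalization, removal of a GC trend, the replicate number as a block, a stricter limit, gene bodies without the 20 kb and leaving out each library. A promoter region lay within 1 kb of an annotated start of its gene, and a peak counted when it overlapped by 1 base. The starts were those of all annotated transcripts of the gene, including transcripts that do not code for protein. Counting error falls with depth, and the intervals here come from the spread between libraries.

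Regions with values in every library were, for each gene, its promoter region with the highest mean signal, up to 5 calls in each direction per line and 5 of the interaction, by adjusted p, and for each pair of PBS lines and gene the region with the smallest adjusted p. The members, gene lists and tests were chosen with earlier results of these data known. Same-numbered treated and PBS libraries were compared by the correlation of their deviations from the group means, which was -0.02 to 0.04, so numbers were not taken to pair libraries. SCC1 PBS replicate 2 was not analysed here.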

Additional observations from a re-analysis of the deposited data

Results flagged for a closer look

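Beyond IGF1R 32, 10 regions had an effect of cetuximab that differed between the lines by the limma interaction of line and treatment, and all of them are given in the report with the changes in each line. At IGF1R, the adjusted p was 6.86e-05 for IGF1R 15, 0.00467 for IGF1R 29, 0.00564 for IGF1R 34, 0.00896 for IGF1R 33, 0.0389 for IGF1R 1, 0.0395 for IGF1R 13 and 0.0433 for IGF1R 27. At the other genes it was 0.00191 for IGFBP3 3, 0.0035 for IRS2 1 and 0.041 for INSR 1. No group had more than 3 libraries, so single libraries far from the rest of their group were not searched for.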

How the results depend on the processing

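Of the counts, 235 of 262 alternative values lay within 1.5 times the value in the report, and no value of a named region changed its direction. In SCC1 the regions higher after cetuximab numbered 4, and 2 with no filter, 8 with median centring, 7 with quantile normalization, 2 in gene bodies with no extension and 1 at an adjusted p under 0.01. Those lower numbered 7, and 3 with no filter, 3 with median centring, 4 with the GC trend removed, 2 by DESeq2 and 3 at an adjusted p under 0.01. With 1 library left out there were 0 to 6 higher and 0 to 8 lower, and 0 and 0 without SCC1 PBS replicate 1. In SCC6 the 9 lower regions became 14 with median centring and 14 with quantile normalization, and leaving out 1 library gave 10 to 12 higher and 6 to 9 lower. For the interaction, 11 regions became 18 by edgeR, 7 in gene bodies and 7 at an adjusted p under 0.01. It was 7 to 15 with 1 library left out, the lowest without SCC25 PBS replicate 2. Of the 7 regions with a peak in every library, 0 remained when a peak had to cover 50% of the region, 0 with a -log10 q of at least 5 and 4 in gene bodies, and leaving out 1 library gave 7 or 8. Fewer regions are counted in gene bodies and under stricter limits by construction, and the cause of the other changes was not tested. Between SCC25 and SCC6 with PBS, 26 higher and 24 lower regions became 23 and 33 with the GC trend removed.

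The replicate number as a block gave 1 lower region in SCC25 (0 without it), 6 higher and 7 lower in SCC1 and 12 and 9 in SCC6, and 11 for the interaction. Over all regions tested, the block moved the calls from 272 to 744 in SCC25 and from 9614 to 12454 in SCC1. In SCC6 they went from 23774 to 24768, and for the interaction from 11388 to 13204. As a hint only, the correlations of same-numbered libraries did not exceed 0.04 and those of all pairs ran from -0.06 to 0.07. Leaving IGF1R 32 aside, 12 of the 20 named calls in SCC6, 5 of 10 for the interaction and 0 of 11 in SCC1 passed under every alternative. The median region held 7 to 15 reads in the SCC1 libraries, and whether depth limited the calls was not tested.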

Other observations

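IRS1 1, 8923 bases past the 3' end of IRS1, had a peak in every library although its signal was low throughout, with a mean of 8.62. The fold enrichment of these peaks ran from 1.33 to 6.08. Of the other regions with a peak in every library, IGF1R 11 in intron 2 had the highest mean signal of the 86 regions, 233.

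Among the 39 other pathway genes, those with the most calls were chosen after their values were seen. In SCC6, GRB10, an adaptor that restrains insulin receptor signalling, had 7 of 17 tested regions higher and 2 lower, and IGFBP7 6 of 11 higher and 1 lower, where 16.9% of all regions were called higher and 10.6% lower. In SCC1, SHC1, an adaptor of receptor tyrosine kinases, had 4 of 8 higher and 0 lower, and HTRA1, a protease that cleaves IGF binding proteins, had 0 of 7 higher and 4 lower. In SCC1 4.58% of all regions were called higher and 6.56% lower, and the counts rest on 2 PBS libraries. Accessibility in SCC1 moved with GC content, and its part in these counts was not tested.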
